A study of Mus musculus with 4 samples.

Results

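The genes described here encode metabotropic glutamate receptors, and the members are the 6 genes Grm2, Grm3, Grm4, Grm5, Grm7 and Grm8, found by their names among the 29224 genes of the deposited tables. All 6 were found, each in a single row, and all 6 passed the filter on low counts. RNA was sequenced from astrocytes of the P5 mouse cortex that had been captured on magnetic beads with the ACSA-1 antibody to GLAST, a glutamate transporter of the astrocyte surface. The 2 control libraries are of Ezh2 f/f mice, whose Ezh2 alleles are flanked by loxP sites, and the 2 knockout libraries from Ezh2 cKO mice, which carry the same floxed alleles together with Cre recombinase driven by Aldh1l1, a gene used to mark astrocytes. The study's methods list C57BL/6J and ICR (CD1) among the strains used, but not the genetic background of these mice. Whether the controls carry Cre, the sex and the number of mice behind each library are likewise not given in the sources used here. The p-values rest on the spread between these libraries, moderated across all genes tested. That spread may therefore be technical.

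Metabotropic glutamate receptors are slow receptors for glutamate that act through G proteins instead of opening a channel. Group I receptors, such as the product of Grm5, couple to Gq and phospholipase C and release calcium from internal stores. Group II (Grm2, Grm3) and group III (Grm4, Grm7, Grm8) receptors couple to Gi/o, lower cyclic AMP and often sit on presynaptic terminals, where they restrain transmitter release. In rodent cortex, astrocytes of the first postnatal weeks are known for Grm5, which declines as they mature, and for Grm3, which persists, whereas the other members are known mainly from neurons.

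Total counts lay between 16273308 and 17522152 per library, at which 3 counts, the floor of detection used here for counting error alone, correspond to 0.170 to 0.191 CPM (counts scaled to the normalised library size). Ezh2 itself had 434 and 327 counts in the controls and 211 and 164 in Ezh2 cKO. Both groups held transcripts of several cell types. Slc1a3, which encodes GLAST, was at 11.1 and 11.6 FPKM (counts scaled to gene length and library size) in the controls and at 36.1 and 36.5 FPKM in Ezh2 cKO. Neuronal transcripts were abundant in both groups, with 12 pan-neuron markers summing to 2880 to 3072 FPKM over the 4 libraries. In these bulk libraries, a change in the number of cells of a type and a change in RNA per cell cannot be told apart.

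All 6 members rose in Ezh2 cKO, each passing an adjusted p-value of 0.05 (edgeR's quasi-likelihood test, Benjamini-Hochberg adjustment over 16793 genes tested), and none was lower. The background is large, since 34.7% of all genes tested were called higher and 33.6% lower, 68.4% in all. At the same threshold with at least a 2-fold increase, all 6 members were called, against 19.0% of genes tested. Grm2 passed this fold cut narrowly (log2 fold change 1.07, standard error 0.12). It fell below the cut, to 0.93, when Ezh2 f/f replicate 1 was left out. For all 6, both Ezh2 cKO libraries lay above both Ezh2 f/f libraries in CPM, which held for 42.8% of genes tested, while 41.5% lay below. The members' median log2 fold change, Ezh2 cKO over Ezh2 f/f, was 2.00, beside a median of 0.02 over all genes tested. Summed over the 6 genes, the level was 11.2 and 13.0 FPKM in the controls and 41.6 and 44.2 FPKM in Ezh2 cKO, a 3.54-fold difference between the group means. Under the alternative analyses, which also called every member they tested higher, the share of all genes called higher was 28.8% with DESeq2, 34.1% with DESeq2's size factors, 19.7% with no filter on low counts and 36.9% with a mean of at least 50 counts. It was 36.8% and 28.1% with limma on log2(FPKM + 1) and log2(FPKM + 0.1), 34.5% with the replicate number as a block, 37.4% without TMM normalisation, and 26.8% to 32.4% with a library left out (32.0% and 32.4% without Ezh2 f/f replicate 1 and 2, 26.8% and 27.3% without Ezh2 cKO replicate 1 and 2).

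**Figure D1:**
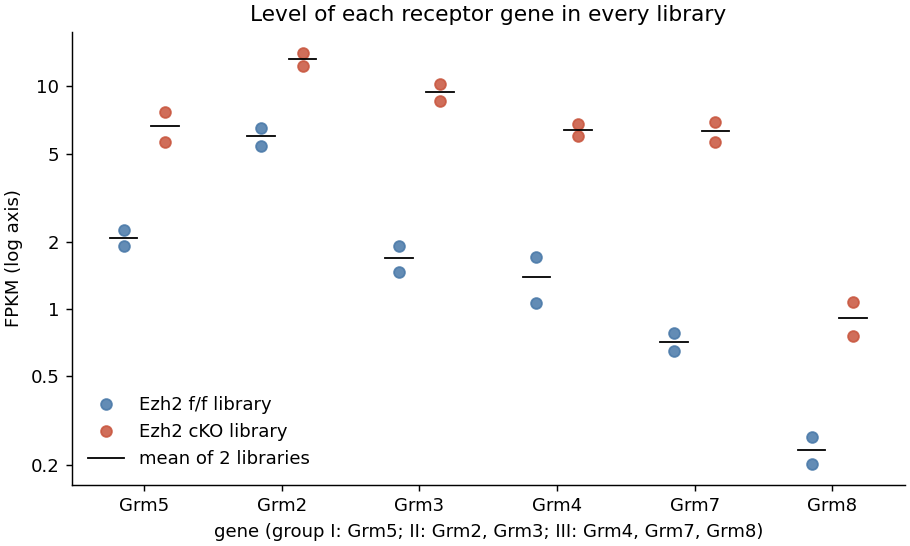
FPKM of each receptor gene (log axis) in the 2 Ezh2 f/f and the 2 Ezh2 cKO libraries; points are libraries and black lines are group means. For all 6 genes both Ezh2 cKO points lie above both Ezh2 f/f points, from Grm8 near the bottom (0.202 to 1.08 FPKM) to Grm2 at the top (5.42 to 14.2 FPKM).

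The group I gene Grm5 (ENSMUSG00000049583) encodes the receptor through which glutamate raises calcium in young astrocytes, and it is also widespread in forebrain neurons. The deposited tables place it at chr7:87233376-87784115 on the plus strand, in coordinates whose build could not be settled from the sources used here, which holds for the other genes too. The controls held 344 and 377 counts of Grm5 and the Ezh2 cKO libraries 996 and 1308. Scaled to library size these were 20.1 and 24.0 CPM in the controls and 56.5 and 75.5 CPM in Ezh2 cKO. The Ezh2 cKO libraries were both high, and they differed from each other more than the controls did. The mean level was 22.1 ± 2.72 CPM in the controls against 66.0 ± 13.4 CPM (SD, n = 2 each). Grm5 thus rose by 1.58 ± 0.14 on the log2 scale (estimate and standard error; edgeR adjusted p = 2.19e-07). Without Ezh2 cKO replicate 2, the higher library, the log2 fold change was 1.36.

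The group II gene Grm2 (ENSMUSG00000023192), known from presynaptic terminals of neurons, lies at chr9:106520294-106533281 on the minus strand. It is the shortest member, with a genomic span of 13.0 kb. Grm2 had 465 and 520 counts in Ezh2 f/f, or 27.2 and 33.1 CPM. In Ezh2 cKO it had 1201 and 1006 counts, or 68.1 and 58.1 CPM. The groups did not overlap, as for 42.8% of genes tested in this direction, and the lower Ezh2 cKO library was well above the higher control. The means were 30.2 ± 4.15 and 63.1 ± 7.11 CPM (SD, n = 2 each). This rise of 1.07 ± 0.12 on the log2 scale was the smallest of the 6 (edgeR adjusted p = 2.20e-06).

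The other group II gene, Grm3 (ENSMUSG00000003974), encodes the metabotropic receptor that astrocytes keep into adulthood and is also present in neurons. It lies at chr5:9535541-9775170 on the minus strand. Grm3 had 103 and 73 counts in Ezh2 f/f, or 6.03 and 4.65 CPM. In Ezh2 cKO it had 455 and 521 counts, or 25.8 and 30.1 CPM. Each Ezh2 cKO library was far above the controls, and the spread within either group was small beside the gap. With means of 5.34 ± 0.979 and 27.9 ± 3.01 CPM (SD, n = 2 each), Grm3 rose by 2.38 ± 0.17 on the log2 scale (edgeR adjusted p = 2.89e-08).

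Among the group III genes, which encode presynaptic receptors for glutamate, Grm4 (ENSMUSG00000063239) lies at chr17:27641361-27740377 on the minus strand. It had 112 and 167 counts in Ezh2 f/f, or 6.56 and 10.6 CPM. In Ezh2 cKO it had 703 and 595 counts, or 39.9 and 34.3 CPM. The 2 controls differed from each other more, relative to their mean, than for any other member, but stayed below both Ezh2 cKO libraries. The means were 8.59 ± 2.88 and 37.1 ± 3.91 CPM (SD, n = 2 each). Grm4 rose by 2.12 ± 0.18 on the log2 scale (edgeR adjusted p = 1.99e-07), by 1.80 when Ezh2 f/f replicate 1 was left out and by 2.48 when Ezh2 f/f replicate 2 was left out.

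Grm7 (ENSMUSG00000056755) encodes a receptor of the presynaptic active zone with low affinity for glutamate, and lies at chr6:110622542-111544191 on the plus strand. Its genomic span of 922 kb was the widest of the 6. Grm7 had 67 and 75 counts in Ezh2 f/f, or 3.92 and 4.77 CPM. In Ezh2 cKO it had 577 and 679 counts, or 32.7 and 39.2 CPM. The controls were close together and low, and the Ezh2 cKO libraries lay far above them. The means were 4.35 ± 0.601 and 36.0 ± 4.57 CPM (SD, n = 2 each). This rise of 3.05 ± 0.17 on the log2 scale was the largest of the 6 (edgeR adjusted p = 2.19e-09), and 1.97% of genes tested had a larger one. On log2(FPKM + 1), which understates the change of low genes, the rise was 2.08.

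Grm8 (ENSMUSG00000024211), another presynaptic group III receptor gene, lies at chr6:27275118-28135177 on the minus strand. It had the fewest counts, 35 and 43 in the controls and 130 and 178 in Ezh2 cKO. These correspond to 2.05 and 2.74 CPM in the controls and to 7.37 and 10.3 CPM in Ezh2 cKO. The groups did not overlap, which in this direction held for 42.8% of genes tested. The means were 2.39 ± 0.486 and 8.82 ± 2.05 CPM (SD, n = 2 each). Grm8 rose by 1.88 ± 0.25 on the log2 scale (edgeR adjusted p = 1.33e-05), and its standard error was the largest of the 6.

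Grm6, a group III gene outside the 6 members that is known from ON bipolar cells of the retina, had 3 and 0 counts in the controls and 1 and 0 in Ezh2 cKO. These counts are at or under the floor, so Grm6 was not detectable at this depth and was not tested. Genes that overlap the members in the deposited coordinates had few counts themselves. The most counted of them was Gm20387, a long noncoding RNA on the strand opposite to Grm7, with 3 and 3 counts in the controls and 12 and 23 in Ezh2 cKO. Whether the counting used strand is not given in the sources used here, so reads of overlapping genes may not be separated.

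The increases were unequal in size. The log2 fold change of Grm7 exceeded that of Grm2 by 1.98 (standard error of the difference 0.20, taking the genes as independent) and that of the other long group III gene, Grm8, by 1.17 (standard error 0.30). Between Grm3 and Grm4 the difference was 0.27 (standard error 0.25), and between Grm4 and Grm8 it was 0.23 (standard error 0.31), so neither pair was resolved by its error. The order of Grm3 and Grm4 turned without Ezh2 f/f replicate 2 (2.19 and 2.48), and that of Grm4 and Grm8 without Ezh2 cKO replicate 1 (2.00 and 2.10). Grm7 had the largest and Grm2 the smallest value under every alternative run. These differences between genes carry no p-value, since they were not tested. Their standard errors take genes measured in the same libraries as independent, and each rests on 2 libraries per group.

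**Figure D2:**
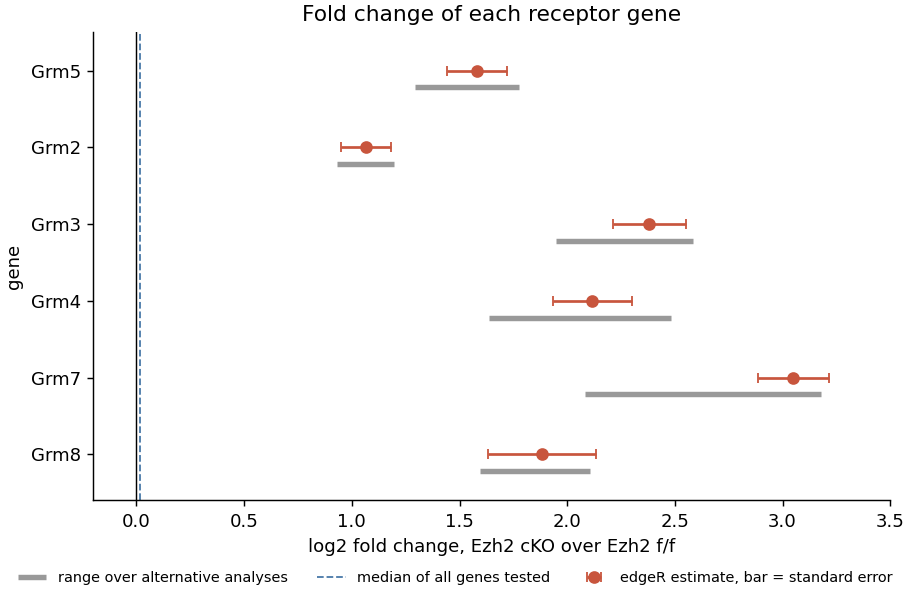
Log2 fold change, Ezh2 cKO over Ezh2 f/f, of each receptor gene; red points and bars are the edgeR estimate and its standard error, grey bars the range over the alternative analyses, and the dashed line the median of all genes tested. The grey bars run from 0.93 for Grm2 to 3.18 for Grm7, and all lie to the right of the dashed line at 0.02.

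Levels of different genes were compared per length, in FPKM. In Ezh2 f/f the order was Grm2 (5.98 ± 0.783), Grm5 (2.09 ± 0.244), Grm3 (1.70 ± 0.323), Grm4 (1.39 ± 0.458), Grm7 (0.716 ± 0.0943) and Grm8 (0.234 ± 0.0461 FPKM, SD, n = 2 each). The libraries of Grm5 and Grm3 overlapped, as did those of Grm3 and Grm4. In Ezh2 cKO the order was Grm2 (13.2 ± 1.30), Grm3 (9.43 ± 1.16), Grm5 (6.63 ± 1.45), Grm4 (6.38 ± 0.578), Grm7 (6.29 ± 0.891) and Grm8 (0.918 ± 0.227 FPKM, SD, n = 2 each). There the libraries of Grm5, Grm4 and Grm7 overlapped, so the order of these 3 genes was not resolved. Among all genes tested, only Grm2 stood above the median level in the controls, whereas in Ezh2 cKO every member except Grm8 did. Grm2 stood above 61.0% of them in the controls and 76.5% in Ezh2 cKO, Grm7 above 21.9% and 60.8%, and Grm8 above 8.46% and 22.2%.

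The make-up of the receptor transcripts differed accordingly. Of the summed FPKM of the 6 genes, Grm2 took 48.5% and 50.1% in the controls and 34.1% and 27.9% in the Ezh2 cKO libraries. The share of Grm7 was 5.81% and 6.01% in the controls and 13.6% and 15.7% in Ezh2 cKO. By group, the group III genes took 17.2% and 21.2% in the controls and 31.7% and 31.6% in Ezh2 cKO, while the group II genes took 65.7% and 61.4% in the controls and 54.8% and 51.1% in Ezh2 cKO. Neither share overlapped between the groups of mice. The share of Grm5, the group I member, did overlap, with 17.1% and 17.4% in the controls and 13.5% and 17.3% in Ezh2 cKO. For the pair of genes best known from astrocytes, the ratio of Grm3 to Grm5 in FPKM was 1.01 and 0.651 in the controls and 1.54 and 1.34 in Ezh2 cKO. With 2 libraries per group an exact permutation test of a share or ratio cannot give a two-sided p below 0.333, and none was run.

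**Figure D3:**
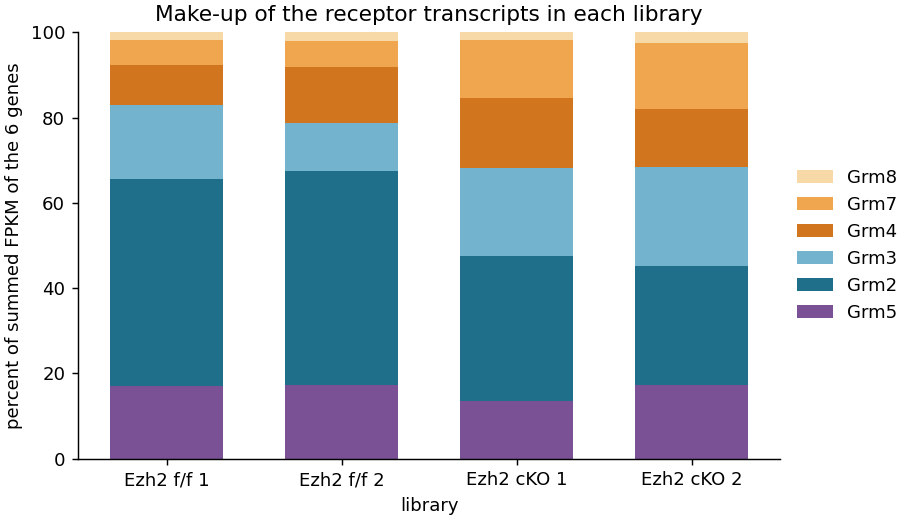
Percent of the summed FPKM of the 6 receptor genes taken by each gene, as stacked bars, 1 bar per library. The blue part (group II) shrinks from 65.7% and 61.4% in Ezh2 f/f to 54.8% and 51.1% in Ezh2 cKO, and the orange part (group III) widens from 17.2% and 21.2% to 31.7% and 31.6%.

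EZH2 is the catalytic subunit of the complex that places H3K27me3, a mark often found at promoters rich in CG dinucleotides, so the promoter sequences of the members were examined. RefSeq promoters (GRCm38.p6) were matched by symbol for 4 members, Grm2, Grm3, Grm7 and Grm8. Grm4 and Grm5 were not matched. The 250 bases before the most upstream start are shown for the members with the smallest and the largest fold change, 5′ to 3′ on the gene's strand, with each CG in capitals. For Grm2 they are chr9:106656110-106656359, minus strand, and for Grm7 chr6:110645262-110645511, plus strand. The deposited gene coordinates above differ from GRCm38 for most genes and are not on the same scale as these.
Grm2: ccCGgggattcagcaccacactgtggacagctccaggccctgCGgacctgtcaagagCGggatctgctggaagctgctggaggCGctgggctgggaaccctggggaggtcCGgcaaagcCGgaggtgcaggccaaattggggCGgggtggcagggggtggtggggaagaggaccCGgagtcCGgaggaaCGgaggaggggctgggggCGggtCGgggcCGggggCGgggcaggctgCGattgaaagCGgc
Grm7: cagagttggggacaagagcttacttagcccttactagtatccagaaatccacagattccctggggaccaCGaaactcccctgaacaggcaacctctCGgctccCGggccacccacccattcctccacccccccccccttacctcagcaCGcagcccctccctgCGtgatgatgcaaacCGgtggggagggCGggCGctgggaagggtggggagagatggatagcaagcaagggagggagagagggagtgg

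The Grm2 stretch holds 16 CG dinucleotides and the Grm7 stretch 8, while the most upstream promoter of Grm8 holds 29 and that of Grm3 holds 8. Grm8 has 3 listed starts, and starts 2 and 3 from upstream hold 8 and 2. Grm7 has 2 listed starts, and start 2 holds 9. The median over 32851 promoters of the same length was 6, and 25.4% of them hold at least 16, 43.0% at least 8 and 6.78% at least 29. In the most upstream stretches the GC box GGGCGG, searched on both strands, occurs 3 times for Grm2 and once each for Grm3, Grm7 and Grm8. Starts 2 and 3 of Grm8 hold 0, and 32.7% of all promoters hold at least 1. TATAAA, also searched on both strands, was not found in these 4 stretches, and 12.4% of all promoters hold it. These are descriptions of sequence. Binding and H3K27me3 at these promoters are not analysed here.

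Partners of the receptors were examined by lists that follow the signalling chain. The counts in these lists, and in the receptor and marker lists further below, stand beside 34.7% of all genes tested called higher and 33.6% lower. No list was tested against these shares. Of 20 genes of Gq signalling, phospholipase C and calcium release, which act after group I receptors, 13 were higher, 3 were lower and 4 passed in neither direction (median log2 fold change 1.08). By smallest p, the leading higher genes included Dgkb (3.93), a diacylglycerol kinase gene, and Ryr2 (2.00), a calcium release channel gene. The lower ones were Itpr3 (-2.81), which encodes an IP3 receptor, and, with small changes, the G protein genes Gna11 (-0.37, adjusted p = 0.00196 from edgeR) and Gnaq (-0.26, adjusted p = 0.0194). Gnaq no longer passed without Ezh2 cKO replicate 1 (-0.18), without TMM normalisation or with limma on log2(FPKM + 1). Like Gna11, it also did not pass with limma on log2(FPKM + 0.1) (adjusted p = 0.280 for Gnaq and 0.104 for Gna11). Over all alternatives the adjusted p of Gnaq ran from 0.00991 to 0.280, and that of Gna11 from 4.12e-05 to 0.104. Itpr2, the IP3 receptor gene best known from astrocytes, was singled out after its values were seen: it had 70 and 73 counts in the controls and 408 and 329 in Ezh2 cKO (2.27, adjusted p = 7.41e-08 from edgeR).

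For Gi/o signalling, which group II and III receptors use, 15 of 22 genes were higher and 3 lower, with a median of 0.56. Kcnj9, which encodes a subunit of G protein-gated potassium channels, had a log2 fold change of 5.02, and the adenylyl cyclase genes Adcy2 and Adcy1 had 1.64 and 1.30. Lower were Gnai3 (-0.58), an inhibitory G protein gene, Prkar2a (-0.50), a regulatory subunit gene of protein kinase A, and Adcy6 (-0.37). Gnai3 missed the threshold with limma on log2(FPKM + 0.1) (adjusted p = 0.0719). Adcy6 did not pass without Ezh2 cKO replicate 2 (-0.25), nor with limma on log2(FPKM + 1) or log2(FPKM + 0.1). Its adjusted p ran from 0.00119 to 0.151 over the alternatives.

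Of 14 scaffold and partner genes in the tables, 11 were higher and 1 lower, with a median of 0.54. Shank3 (1.95) and Frmpd4 (2.28) encode proteins that tie group I receptors to the postsynaptic density, and Ncdn (0.73) encodes norbin, which binds the product of Grm5. The lower gene was Homer3 (-1.82), which encodes an adaptor of group I receptors. Of 11 desensitisation genes, 7 were higher and 3 lower (median 0.50). Rgs4 (1.99) and Rgs14 (3.54), which speed the shut-off of G proteins, and Arrb1 (0.88), an arrestin gene, were higher, and the receptor kinase genes Grk2 (-0.51) and Grk6 (-0.49) were lower. Rgs8 (-0.42, adjusted p = 0.0355 from edgeR) also passed, but it had 1033 and 1568 counts in the controls and 1043 and 1045 in Ezh2 cKO. Without Ezh2 f/f replicate 2 it was at -0.03 (adjusted p = 0.835); it was at -0.41 without Ezh2 cKO replicate 1 and at -0.43 without Ezh2 cKO replicate 2 (adjusted p = 0.208 and 0.178). Rgs8 missed the threshold in 9 of 12 alternatives, with adjusted p from 3.08e-10 to 0.835.

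Related receptor genes moved in both directions in the same libraries. Of 8 tested genes for other class C receptors, the structural class to which metabotropic receptors belong, 6 were higher and 1 lower (median 0.89). Gpr158 (2.62), Gabbr2 (0.93), which encodes a subunit of the GABA-B receptor, and Gprc5b (0.85) were the higher ones with the smallest p. Of 18 ionotropic glutamate receptor genes, which encode glutamate-gated channels, 10 were higher, 2 lower and 6 passed in neither direction (median 0.46). The NMDA receptor genes Grin2a (2.91) and Grin1 (1.63) and the AMPA receptor gene Gria3 (1.67) were higher, and the kainate receptor gene Grik5 (-0.44) was lower. Grin3b, the other lower gene, had 15 and 15 counts in the controls and 3 and 7 in Ezh2 cKO (-1.65, adjusted p = 0.0166 from edgeR). It did not pass with DESeq2 (adjusted p = 0.129), without Ezh2 f/f replicate 1 (adjusted p = 0.0602), without Ezh2 f/f replicate 2 (0.0657) or without Ezh2 cKO replicate 1 (0.189), and its adjusted p was 0.0138 at the lowest. Whether the metabotropic genes differ from these lists was not tested.

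**Figure D4:**
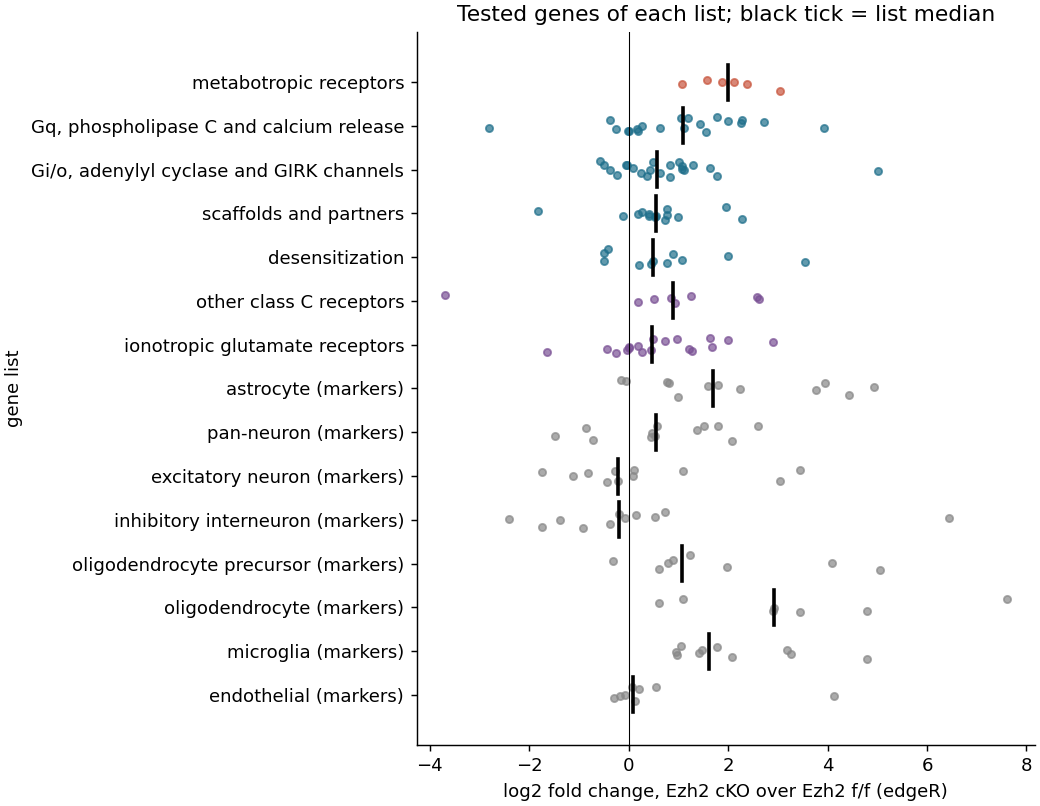
Log2 fold change, Ezh2 cKO over Ezh2 f/f, of each tested gene in the receptor, signalling and marker lists; each point is a gene and the black tick is the list median. The metabotropic receptor genes lie between 1.07 and 3.05, while the ionotropic receptor genes run from -1.65 to 2.91. The tested microglia (0.95 to 4.79) and oligodendrocyte markers (0.62 to 7.60) are also all positive, and the other marker lists hold values of both signs.

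Markers of cell types that can hold these receptors moved between the groups too. Of 12 astrocyte markers, 10 were higher and 0 lower (median log2 fold change 1.69), and their summed level was 191 FPKM in both controls and 686 and 619 FPKM in Ezh2 cKO. Aldh1l1, whose regulatory sequence drives Cre, was among the 2 markers that passed in neither direction (-0.15, adjusted p = 0.175 from edgeR). Of 12 pan-neuron markers, 9 were higher and 3 lower (median 0.55), and their summed level was 2891 and 3072 FPKM in the controls and 2880 and 2895 FPKM in Ezh2 cKO. Tubb3, a neuronal tubulin gene and 1 of the 3 lower markers, took most of the pan-neuron sum in the controls. Without it the other 11 markers summed to 1032 and 1175 FPKM in the controls and to 1657 and 1688 FPKM in Ezh2 cKO. The astrocyte sums, and the pan-neuron sums without Tubb3, were thus higher in Ezh2 cKO with no overlap. Excitatory neuron markers, with 3 of 11 higher and 5 lower, summed to 375 and 333 FPKM in the controls and to 715 and 687 FPKM in Ezh2 cKO. Camk2a, which encodes a calcium-dependent kinase, and Slc17a7, which encodes a vesicular glutamate transporter, carried that direction: the other 9 markers summed to 318 and 281 FPKM in the controls and to 159 and 162 FPKM in Ezh2 cKO. Inhibitory interneuron markers, also with 3 of 11 higher and 5 lower, summed to 502 and 432 FPKM in the controls and to 554 and 543 FPKM in Ezh2 cKO. Without Sst, the gene of the peptide somatostatin, the other 10 summed to 258 and 228 FPKM in the controls and to 208 and 209 FPKM in Ezh2 cKO. The most abundant markers were left out after their values were seen.

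Of 8 oligodendrocyte precursor markers 7 were higher and 1 lower, and the sum was 55.1 and 54.4 FPKM in the controls and 185 and 164 FPKM in Ezh2 cKO. All 7 tested of 8 oligodendrocyte markers were higher, with a sum of 21.4 and 23.1 FPKM in the controls and 163 and 143 FPKM in Ezh2 cKO. All 10 microglia markers were higher, with a sum of 60.0 and 59.5 FPKM in the controls and 168 and 147 FPKM in Ezh2 cKO. Of 8 endothelial markers 2 were higher and 1 lower, with a sum of 112 and 106 FPKM in the controls and 121 and 105 FPKM in Ezh2 cKO. The precursor, oligodendrocyte and microglia sums did not overlap between the groups, whereas the endothelial sums did, unless Cldn5, a tight junction gene, was left out (28.1 and 27.0 FPKM in the controls, 33.7 and 29.7 FPKM in Ezh2 cKO). No marker in these lists was at or under 3 counts in all 4 libraries. The part of these shifts in the receptor genes was not tested.

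Long genes were also more often higher than lower in Ezh2 cKO. The 949 tested genes with a genomic span of at least 200 kb include Grm3, Grm5, Grm7 and Grm8. The median log2 fold change of these 949 genes was 0.50, with 55.6% called higher and 18.3% lower. Among the 3546 genes of 50 to 200 kb, such as Grm4, the median was 0.07, with 37.3% called higher and 30.9% lower. Among the 12298 genes under 50 kb, such as Grm2, it was -0.04, with 32.4% called higher and 35.6% lower. The 4 longest members, at 1.58 to 3.05, lay above the median of their class. Over counted gene length, which sets FPKM, the medians showed no such gradient (0.04 for genes under 3 kb, 0.00 for 3 to 11 kb, where all 6 members fall, and 0.02 above). The percent called higher was 33.6%, 35.0% and 38.0% in the same order. The part of genomic span in the members' values was not tested.

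Genes with a similar pattern were sought by the root mean square difference in log2CPM, each gene centred on its own mean over the 4 libraries. Grm3 was closest to Adk (0.03), which encodes adenosine kinase, and then to Atp1b1 (0.06) and Scn2a (0.06), subunits of the sodium pump and of a sodium channel. Near Grm7 were Hdhd3 (0.04) and Gm53058 (0.06), and Grm5 was closest to Pdyn (0.04), Hpse (0.04) and Fgf10 (0.04). For Grm2 the nearest genes were Ubtd1, C1qtnf6 and Cox4i2 (0.02 each), for Grm4 they were Mrpl14 (0.04), Acyp2 (0.04) and Ampd3 (0.05), and for Grm8 they were Itgbl1 (0.06), Fmn1 (0.06) and Lgi4 (0.07). Among the members themselves, Grm5 and Grm8 were the most alike (0.16) and Grm2 and Grm7 the least (1.00). With 4 libraries in 2 groups, this measure mostly compares fold changes.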

How the data were processed

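RNA-seq was performed on cortical astrocytes of P5 mice, from 2 Ezh2 f/f and 2 Ezh2 cKO libraries. Per gene and library, the authors deposited raw read counts and FPKM, which equal the counts divided by gene length and by the summed counts. They also deposited their own comparison (a mean signal, a fold ratio, its log2 value and p-values), which was not used. The submitters' processing notes name Bowtie2 2.2.3, TopHat2 2.0.12, HTSeq 0.6.0 and mm9. Of 28799 genes with an identifier in GENCODE M21 (GRCm38), 581 have the same coordinates there, and mm9 was not checked; coordinates are printed as deposited. All sample columns were used.

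Counts were filtered with filterByExpr (16793 genes left), normalised by TMM and compared with edgeR 4.0.16 (R 4.3.3), with the group as the only term, and fold changes set Ezh2 cKO against Ezh2 f/f. The standard error of a log2 fold change was taken as its size divided by the square root of the F statistic of edgeR's quasi-likelihood test. CPM are scaled to the TMM-adjusted library size. Alternatives were DESeq2 1.42.0, DESeq2's size factors, other filters on low counts, limma 3.58.1 on log2(FPKM + 1) with FPKM of at least 1 in 2 libraries, limma on log2(FPKM + 0.1), the replicate number as a block, and each library left out in turn. A fit on library totals without TMM was added after the data were seen. The edgeR, DESeq2, limma on log2(FPKM + 1) and block fits were tried on simulated counts. Few genes were changed there, unlike the 68.4% called here, so that trial does not cover shifts this broad. The libraries within each group were distinct beyond counting noise (chi-square per degree of freedom 8.92 for Ezh2 f/f, 5.68 for Ezh2 cKO).

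The members and lists were chosen with earlier results of these data known. Named genes are the members, other genes of the family, the 3 higher and 3 lower genes of each list with the smallest p past the threshold, and the 3 genes nearest in pattern to each member; other names were chosen after their values were seen, and some genes that the rule names are not reported here. RefSeq promoters were read on GRCm38.p6.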

Additional observations from a re-analysis of the deposited data

How the results depend on the processing

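All 6 members kept their direction and passed the threshold under all alternatives in which they were tested, 71 of 71 values, from 0.93 (Grm2, without Ezh2 f/f replicate 1) to 3.18 (Grm7, without Ezh2 f/f replicate 2), with adjusted p-values up to 0.0128. Grm8 was not tested with limma on log2(FPKM + 1), because its FPKM reached 1 in a single library, so 5 members were called there. The count of members lower was 0 throughout. With the replicate number as a block, 6 members were higher and 0 lower, and no call of a member or list count moved by over 1.5 times. Same-numbered libraries deviated together with r = 0.15 over 16387 genes, but with 2 pairs, and nothing in the labels tying the numbers together, the libraries were not treated as paired. For the ionotropic receptor genes, 1 was lower with DESeq2, and 1 to 2 were lower with a library left out (1 without Ezh2 f/f replicate 2 or Ezh2 cKO replicate 1). Of 59 other named genes, 698 values under alternatives gave 673 with the same call, 25 that no longer passed, and 0 reversals. The 2 libraries per group and the low counts of Grm8 limit the precision.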
